A study of Homo sapiens with 38 samples.

Results

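The 9 genes described here, AIF1L, LAMC3, SLC12A7, CNTN2, NFASC, GNAZ, RBFOX3, FIBCD1 and RTN4R, were picked because they lie under the widest and highest-signal H3K27me3 regions of the benchmark libraries. They are 9 of 20136 protein-coding genes. H3K27me3 in the 2 benchmark libraries chose them, so that its values there are given as a description. Gene body coverage (the percent of a gene's annotated length under peaks), promoter peaks (a peak within 1.5 kb of any annotated transcript start) and peak widths were scored in all 38 libraries.

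The study used CUT&Tag, in which an antibody directs a tethered Tn5 transposase to cut and tag the chromatin around a histone mark, in K562, an established human chronic myeloid leukemia line that carries the BCR::ABL1 fusion. All libraries come from this 1 line, 31 of them for H3K27ac and 7 for H3K27me3. The 8 benchmark libraries comprise 2 replicates each of the H3K27ac antibodies Abcam-ab177178 (1:100), Abcam-ab4729 (1:100) and Diagenode (1:50) and of the H3K27me3 antibody CST 9733 (1:100). A first set of 6 libraries holds 1 each of ab177178, ab4729, Active Motif, CST 9733 and Diagenode at 1:100 and of Diagenode at 1:50. A further 4 H3K27ac libraries were made with the histone deacetylase inhibitor Trichostatin A (TSA), and 20 cross 5 antibodies (ab177178, ab4729, Active Motif, Diagenode, CST 9733) with 11 or 13 PCR cycles and with SDS or column extraction of DNA, 1 library per condition and Diagenode at 1:50. The benchmark, first and TSA libraries were all made with SDS extraction and 15 PCR cycles. Every H3K27me3 library used the same antibody, so that mark and antibody cannot be told apart. Nothing in the labels says whether replicates came from separate cultures, and a p-value here measures only the spread between these libraries.

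H3K27me3 is laid down by Polycomb repressive complex 2 through its EZH1 or EZH2 subunit and marks silent developmental and lineage-foreign genes, over which it can spread into broad domains. H3K27ac is laid down on the same lysine by CBP and p300 and marks active promoters and enhancers, so that a single histone tail cannot carry both. Polycomb complexes are known to favour CpG-rich promoters that are not transcribed.

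The 9 genes have varied roles. NFASC and CNTN2 encode the axonal adhesion proteins neurofascin and contactin-2, RTN4R the Nogo receptor that limits axon growth, and RBFOX3 the neuronal splicing factor known as NeuN. GNAZ encodes an inhibitory G protein alpha subunit, SLC12A7 a potassium-chloride cotransporter, LAMC3 a laminin gamma chain of basement membranes, FIBCD1 a membrane receptor with a fibrinogen-like domain that binds acetylated sugars, and AIF1L an actin-binding relative of AIF1.

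In hg19 (GRCh37), 3 of the genes stand side by side on chromosome 9 next to ABL1. FIBCD1 (chr9:133777825-133814673, minus strand) begins 0.0148 Mb beyond ABL1, LAMC3 (chr9:133884561-133969860, plus) 0.121 Mb and AIF1L (chr9:133971863-133998539, plus) 0.209 Mb beyond it. On chromosome 22, GNAZ (chr22:23412705-23467219, plus) ends 0.0547 Mb before BCR and RTN4R (chr22:20228938-20270769, minus) 3.25 Mb before it. The other 4 are NFASC (chr1:204797779-204991950, plus) and, 20.1 kb after it, CNTN2 (chr1:205012065-205047417, plus), SLC12A7 (chr5:1050499-1112178, minus) and RBFOX3 (chr17:77085427-77512230, minus). The genes range in length from 26.7 kb (AIF1L) to 427 kb (RBFOX3). In what follows the 5 genes on chromosomes 9 and 22 are set beside the other 4, a split made after the values were seen.

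Promoters of 3 of the genes are shown because they differ in H3K27ac and in CG: AIF1L, with an H3K27ac promoter peak in every benchmark library, CNTN2, with no H3K27ac peak in any benchmark library, and RBFOX3, with few CG. Each run covers 250 bases before to 50 bases from the canonical transcript start, read 5′ to 3′ on the gene's strand from GRCh37, with every CG dinucleotide (the same on both strands) in capitals.
AIF1L promoter, chr9:133971668-133971967, plus strand: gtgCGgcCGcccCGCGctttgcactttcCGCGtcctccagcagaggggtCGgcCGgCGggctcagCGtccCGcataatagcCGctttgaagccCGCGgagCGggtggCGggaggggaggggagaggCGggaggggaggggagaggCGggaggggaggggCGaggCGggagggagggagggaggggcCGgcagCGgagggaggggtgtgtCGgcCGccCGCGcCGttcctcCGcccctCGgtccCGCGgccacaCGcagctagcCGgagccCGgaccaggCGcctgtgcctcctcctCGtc
CNTN2 promoter, chr1:205012090-205012389, plus strand: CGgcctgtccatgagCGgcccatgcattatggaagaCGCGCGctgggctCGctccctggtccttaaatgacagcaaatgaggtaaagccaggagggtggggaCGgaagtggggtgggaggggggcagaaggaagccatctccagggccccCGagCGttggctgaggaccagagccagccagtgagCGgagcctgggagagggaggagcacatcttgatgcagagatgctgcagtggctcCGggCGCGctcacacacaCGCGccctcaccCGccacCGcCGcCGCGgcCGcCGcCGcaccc
RBFOX3 promoter, chr17:77478631-77478930, minus strand: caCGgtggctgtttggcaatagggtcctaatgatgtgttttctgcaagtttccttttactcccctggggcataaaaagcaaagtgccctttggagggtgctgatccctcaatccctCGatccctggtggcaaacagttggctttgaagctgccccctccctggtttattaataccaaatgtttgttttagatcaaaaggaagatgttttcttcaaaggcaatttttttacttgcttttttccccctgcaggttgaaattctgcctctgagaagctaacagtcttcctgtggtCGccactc

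Over 20132 protein-coding promoters of 300 bases, the median was 23 CG, and 98.2% held at least 1. Among 8 of the genes, AIF1L and FIBCD1 held 36, LAMC3 37, SLC12A7 39, NFASC 35 and RTN4R 46. CNTN2 sat at the median with 23. RBFOX3 held 3, a count reached by 90.9% of promoters, and its canonical start is 1 of 13 annotated starts.

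The peak lists set the precision of all values, since they hold no reads. The SEACR lists held 83643 to 85248 peaks in the benchmark H3K27me3 libraries, 65339 to 77684 in those of the PCR and extraction set and 107101 in the first library. The H3K27ac lists held 10930 to 15614 peaks in the benchmark set and 3070 to 21904 elsewhere. As a check of the line, 8 of 10 erythroid genes, whose expression K562 is known for, had an H3K27ac promoter peak in all 6 benchmark libraries, against 0 of 8 neuronal and 0 of 4 lymphoid genes.

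A pair of the libraries with TSA stood apart, each most like a library of another antibody. Across all genes, the gene body coverage of the library labelled ab4729 with TSA was most like that of ab177178 at 11 cycles with SDS (r = 0.63 across 20136 genes, which are not independent replicates) and less like ab4729 without TSA (r = 0.57). The library labelled ab177178 with TSA was most like Diagenode 1:50 with TSA (r = 0.62) and less like ab177178 without TSA (r = 0.48). Diagenode 1:100 with TSA was also more like another library, Diagenode 1:50 with TSA (r = 0.67), than its own without TSA (r = 0.63). The lists without TSA were called at full depth. Whether antibody, treatment, depth or handling accounts for the place of the pair was not tested. The main counts and depths over all H3K27ac libraries are given with and without the pair.

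In the benchmark libraries, the values that chose the genes were as follows. A single H3K27me3 region of 167 kb in replicate 1 (chr9:133830768-133997749) and of 165 kb in replicate 2 lay over both LAMC3 and AIF1L and ranked first in its list by width and by total signal. FIBCD1 lay under a region of 56.8 and 56.3 kb that was only the 10th and 34th widest but the 2nd by signal in both. GNAZ lay under 78.2 and 78.7 kb and RTN4R under 56.8 and 56.2 kb, with little difference between the replicates.

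On chromosomes 1, 5 and 17 the 2 replicates drew the regions differently. NFASC lay under a region of 60.7 kb in replicate 1 and CNTN2 under a separate one of 23.2 kb, while in replicate 2 a single region of 102 kb reached over both. SLC12A7 went from 58.5 to 118 kb and RBFOX3 from 50.6 to 99.8 kb. Of the 10 widest regions, 6 in replicate 1 and 5 in replicate 2 touched at least 1 of the 9 genes, and the others lay elsewhere. Coverage of the gene body in these libraries ran from 72.4% (NFASC, replicate 1) to 100%.

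The 5 H3K27me3 libraries outside the choice ask whether the domains are seen again. Every one of the 9 genes had an H3K27me3 promoter peak in all 5, as 12.3% of all protein-coding genes did. The median gene body coverage of the 9 was 64.9% (median of the genes' means, n = 5 libraries), against a median of 0% over all protein-coding genes, and 7 of the 9 had a mean coverage of 50% or more, as 1.96% of all protein-coding genes did. RBFOX3, the lowest of the 9, was still covered more than 95.5% of protein-coding genes.

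FIBCD1 was the most completely covered, at 99.5% or more in each of the 5 libraries (mean 99.7% ± 0.27, SD). GNAZ was covered by 100% in the first library and by 92.8, 95.4, 97.2 and 94.8% at 11 cycles with SDS, 11 with column, 13 with SDS and 13 with column. LAMC3 stood at 99.2% in the first library and, in the same order, at 88.7, 89.8, 95.0 and 92.2%. These 3 genes were covered almost whole in every library, with no value under 88.7%.

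AIF1L was covered by 100% in the first library and by 74.5, 76.2, 87.7 and 80.1% in the PCR and extraction libraries, in the order above. RTN4R was covered by 83.5% and by 57.8, 58.0, 69.6 and 55.5%. For both, the first library was the highest and 13 cycles with SDS came next.

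The 4 genes away from chromosomes 9 and 22 had lower mean coverage than the other 5, although CNTN2 stood above RTN4R in the first library and at 11 cycles with column extraction. CNTN2 was covered by 85.3% in the first library and by 37.7, 58.4, 61.9 and 50.7% in the others. SLC12A7 stood at 72.6% and then at 37.2, 58.0, 58.6 and 41.7%. The 2 longest genes came last. NFASC was covered by 66.4% and by 25.6, 29.6, 38.8 and 31.1%, and RBFOX3 by 62.0% and by 17.0, 27.5, 32.8 and 23.1%. Each of these 4 was lowest at 11 cycles with SDS, and their values in the PCR and extraction libraries did not reach those of FIBCD1, GNAZ, LAMC3 or AIF1L in any library.

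**Figure D1:**
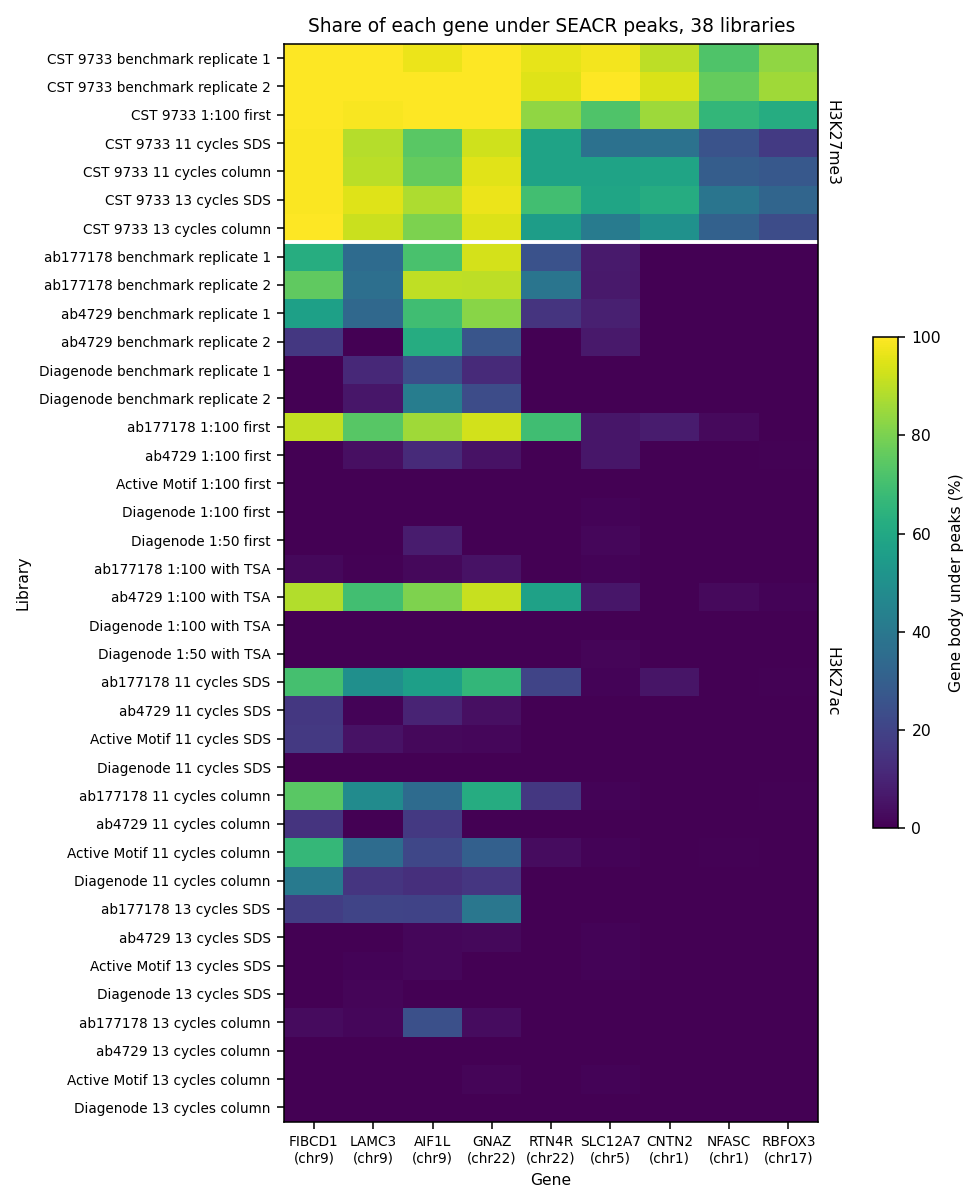
Percent of each gene under SEACR peaks (colour, 0 to 100%) for the 9 genes (columns) in the 38 libraries (rows), with H3K27me3 above the white line and H3K27ac under it. The H3K27me3 rows are bright for FIBCD1, GNAZ and LAMC3 in all 7 libraries and dim for NFASC and RBFOX3 in the 4 PCR and extraction libraries, while H3K27ac rows are bright for the 5 genes on chromosomes 9 and 22 in a subset of libraries, ab177178 among them.

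The promoter peaks were also seen start by start. In each of the 5 libraries outside the choice, H3K27me3 peaks reached every annotated start of AIF1L (9 starts), LAMC3 (6), SLC12A7 (6), GNAZ (3), FIBCD1 (7) and RTN4R (6). For the genes with many scattered starts the reach was nearly as complete, at 29 to 31 of 31 starts of CNTN2, 16 to 21 of 21 of NFASC and 10 to 13 of 13 of RBFOX3.

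Peak width depended on the library far more than coverage did. In the PCR and extraction libraries the widest H3K27me3 peak over FIBCD1 measured 18.6, 33.0, 33.9 and 47.9 kb (11 cycles SDS, 11 column, 13 SDS, 13 column) and was the widest of the whole list in each. GNAZ lay under 12.6, 27, 30.2 and 17.7 kb, which ranked 2nd to 5th, and LAMC3 under 16.7, 15.4, 25.8 and 19.7 kb, which ranked 2nd or 3rd. So 3 of the 9 genes held places among the 5 widest peaks of every one of these lists.

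The others were broken into shorter peaks. Over AIF1L the widest peak was 8.01 to 13.4 kb (ranks 9 to 31), over RTN4R 4.96 to 17.0 kb (ranks 6 to 127) and over NFASC 3.97 to 10.1 kb (ranks 16 to 183). Over CNTN2 it was 2.42 to 5.66 kb, over RBFOX3 2.61 to 4.50 kb and over SLC12A7 1.77 to 4.91 kb, with ranks from 107 to 1806. RBFOX3 was covered by 101 to 153 separate peaks in these lists, against 46 to 57 in the benchmark lists, and FIBCD1 by 1 to 3 against 1. SLC12A7 went from 1 or 2 peaks to between 28 and 36.

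In the first library GNAZ lay under the widest peak of the list (78.2 kb) and LAMC3 and AIF1L shared the next (67.6 kb), followed by FIBCD1 (56.9 kb). Over the 5 libraries outside the choice the median gene's widest peak was 15.9 kb (mean over libraries), which was 8.91 kb without the first library. When peaks within 1000 bp were merged it was 35.3 kb.

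**Figure D2:**
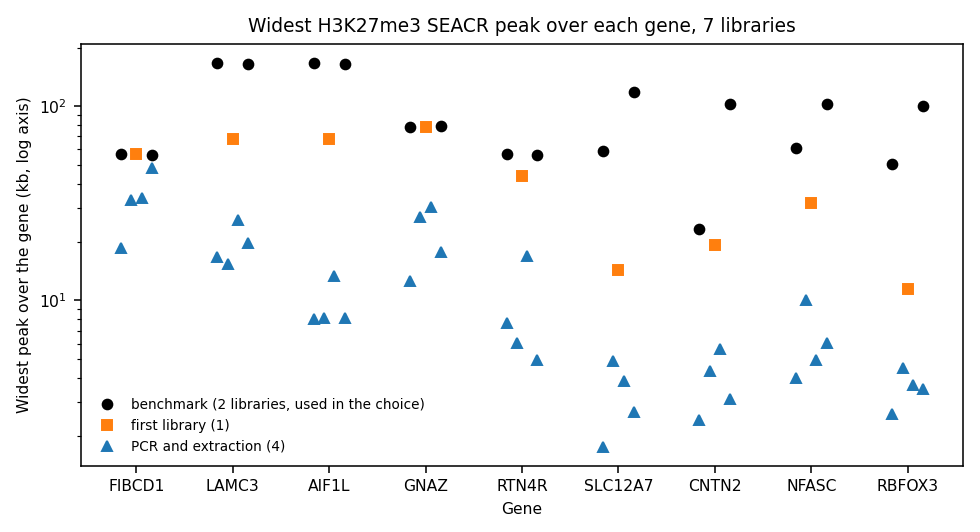
Width in kb (log axis) of the widest H3K27me3 SEACR peak over each gene, with 1 point per library: black circles the 2 benchmark libraries that chose the genes, orange squares the first library, blue triangles the 4 PCR and extraction libraries. FIBCD1, GNAZ and LAMC3 keep peaks of 12.6 kb or more in all 7 libraries, while SLC12A7, CNTN2 and RBFOX3 fall to 5.66 kb or less in the PCR and extraction libraries.

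The H3K27me3 peaks over the chromosome 9 and 22 genes were deeper than those over the other 4. Peak depth is taken here as total signal over width, the mean number of fragments over a base of the peak, and is given over the median peak depth of its list. FIBCD1 had the deepest peaks, at 38.4 and 47.5 times the list median in the benchmark libraries, which took part in the choice. In the 5 others it stood at 10.7 (first), 6.97, 9.27, 7.63 and 7.46 times. LAMC3 lay at 3.68 to 20.03 times over the 7 libraries, GNAZ at 2.70 to 16.1, AIF1L at 2.45 to 20.03 and RTN4R at 1.76 to 14.1. SLC12A7, CNTN2, NFASC and RBFOX3 lay at 1.06 to 7.23 times.

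Library by library, the lowest of the 5 genes on chromosomes 9 and 22 exceeded the highest of the other 4 in all 5 H3K27me3 libraries outside the choice. The same held in the 2 benchmark libraries, whose signal took part in the choice. The split into 5 and 4 was itself made after the values were seen. At 13 cycles with column extraction, where their ratio was smallest, these bounds were 2.03 and 1.59 times. Number of gene copies and local read density move with such a depth, copy number was not measured in these files, and their part in the widths and coverages was not tested.

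**Figure D3:**
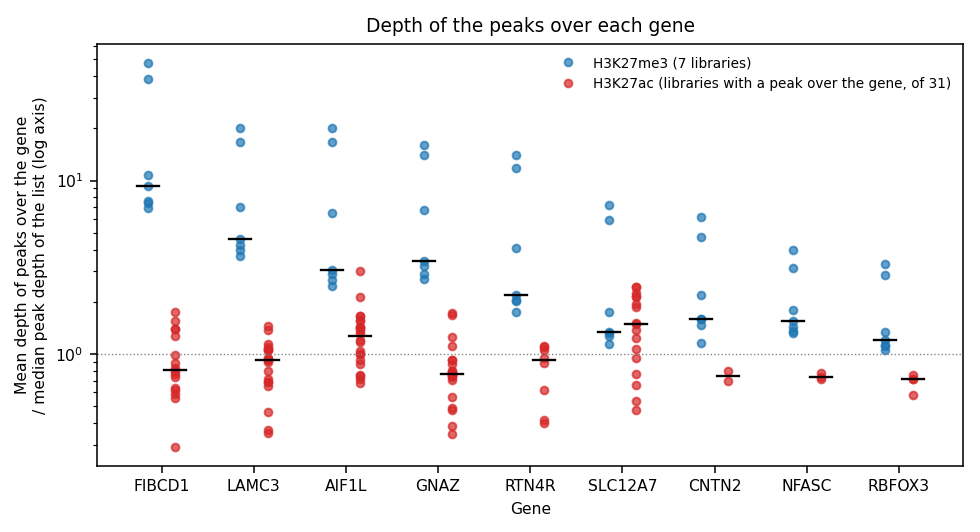
Mean depth of the SEACR peaks over each gene divided by the median peak depth of the same list (log axis, dotted line at 1), 1 point per library with a peak over the gene and a black bar at the median. H3K27me3 (blue, 7 libraries) is deepest over FIBCD1 (median 9.27) and shallowest over RBFOX3 (median 1.21), while H3K27ac (red) lies around the list median over all 9 genes, with medians from 0.72 to 1.49.

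Within the domains the highest signal did not lie at the promoter in most cases. For SLC12A7 it fell within a window of 300 bases in all 7 libraries, 12.6 to 12.7 kb after the canonical start and 5.79 to 5.86 kb from the nearest annotated start. The window overlapped no annotated exon of SLC12A7. The sequence is shown because all 7 libraries point to it, and it is a repeat. The word AGGAGGTGGA, here in capitals, occurs 6 times, and no other word of 10 letters occurs more often in it. On either strand this word was found in 0.402% of the promoters of the same length, at most 2 times in any. The word was picked from the window itself.
SLC12A7 highest point, chr5:1099377-1099676, minus strand: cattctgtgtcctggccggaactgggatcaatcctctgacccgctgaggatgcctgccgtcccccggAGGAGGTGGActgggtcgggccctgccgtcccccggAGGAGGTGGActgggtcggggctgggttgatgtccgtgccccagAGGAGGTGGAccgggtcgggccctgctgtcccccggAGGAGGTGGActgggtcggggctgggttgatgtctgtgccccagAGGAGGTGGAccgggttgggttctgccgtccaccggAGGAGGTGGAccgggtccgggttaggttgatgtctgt

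For FIBCD1 the highest point lay 21.5 to 25.0 kb after the canonical start in the 7 libraries and for GNAZ 24.4 to 33.8 kb after it, both inside the gene. Neither came within 1.5 kb of any annotated start in any library, nor did those of LAMC3, SLC12A7 and RTN4R. In contrast, the highest point lay within 1.5 kb of a start in 4 of 7 libraries for AIF1L and for NFASC, in 2 for CNTN2 and in 1 for RBFOX3. For AIF1L, whose peak is shared with LAMC3 in the benchmark lists, the point lay up to 106 kb before its start.

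**Figure D4:**
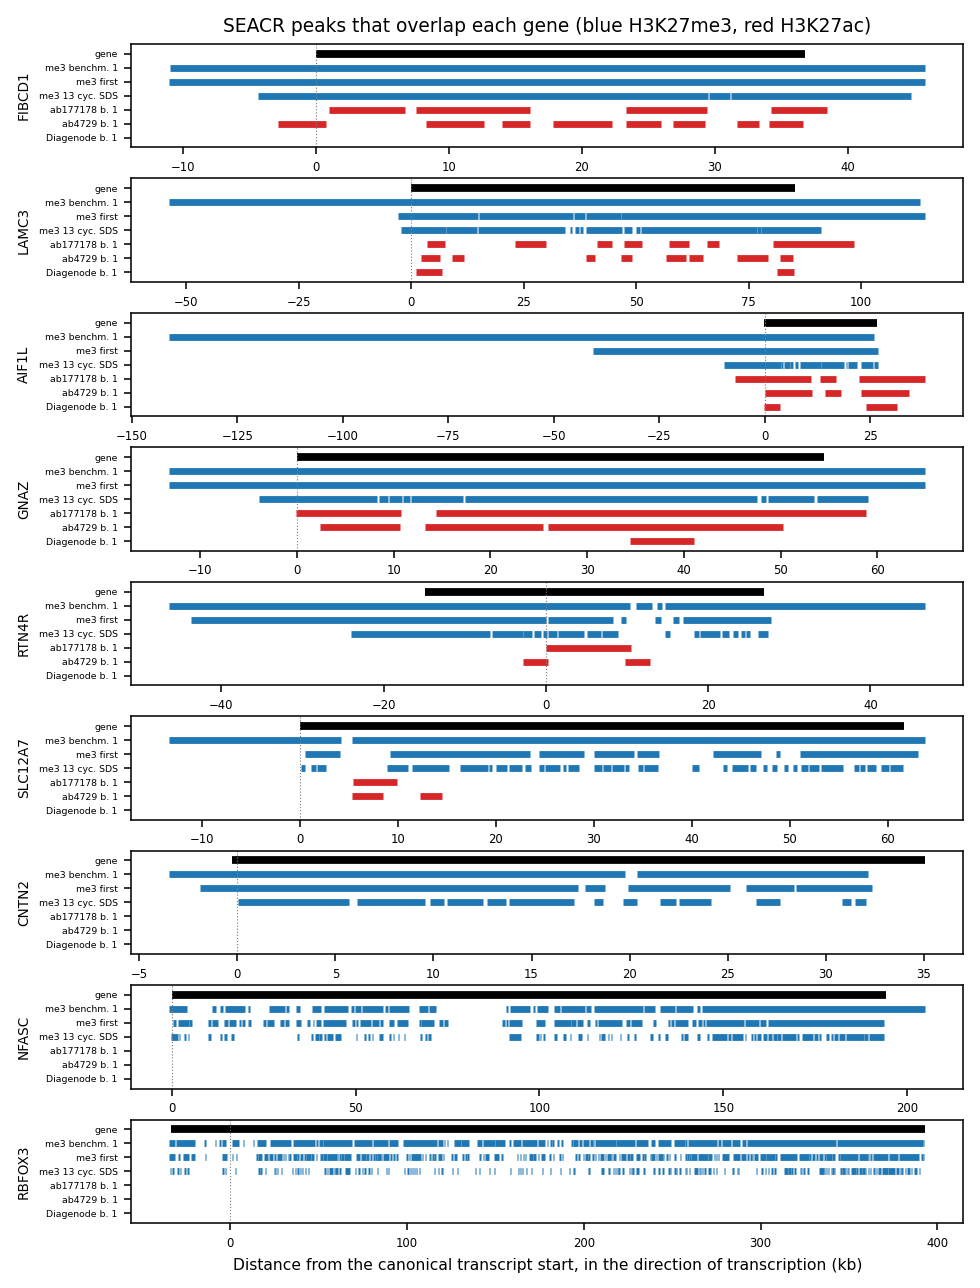
SEACR peaks that overlap each gene, drawn to scale against the distance in kb from its canonical transcript start (dotted line, transcription to the right), with the gene as a black bar, H3K27me3 in blue (benchmark replicate 1, first library, 13 cycles with SDS) and H3K27ac in red (replicate 1 of the benchmark ab177178, ab4729 and Diagenode). Peaks that do not touch the gene are not drawn. The blue regions run past both ends of GNAZ and FIBCD1, and red peaks lie inside them, while CNTN2, NFASC and RBFOX3 have no red peak.

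The mark difference was tested in the 20 PCR and extraction libraries, which the choice of genes did not use. The authors had downsampled them to a shared number of read pairs. The paper's duplication rates at full depth differ between these libraries, so that their unique fragments need not be matched. Coverage by H3K27me3 exceeded that by H3K27ac for all 9 genes, and for each the lowest of the 4 H3K27me3 libraries lay above the highest of the 16 H3K27ac libraries. Such separation was found for 22.9% of the 15267 genes tested, and 28.6% of them were called higher for H3K27me3. The difference was largest for GNAZ (95.1% against 14.2%), LAMC3 (91.4% against 11.2%) and FIBCD1 (99.6% against 20.1%), followed by AIF1L (79.6% against 12.7%) and RTN4R (60.2% against 2.50%). CNTN2 (52.2% against 0.346%), SLC12A7 (48.9% against 0.388%), NFASC (31.3% against 0.0357%) and RBFOX3 (25.1% against 0.0510%) had close to no H3K27ac. So had most genes: the median H3K27ac coverage over all protein-coding genes was 0.0439%, near NFASC and RBFOX3 and lower than CNTN2 and SLC12A7.

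Each of the 9 gave p = 0.000206 in the exact two-sided permutation test over all ways to pick 4 of the 20 libraries, the smallest it can give, and an adjusted p of 0.000859 (Benjamini-Hochberg over all genes tested). The median difference over all genes tested was -0.15 percentage points. The H3K27me3 lists were called at a less strict SEACR threshold and are longer. When every list was cut to its 3797 highest-signal peaks, all 9 genes were still called and 9.29% of the genes tested were. The difference then fell to 16.3 percentage points for SLC12A7, 28.2 for CNTN2, 13.3 for NFASC, 4.10 for RBFOX3 and 37.6 for RTN4R, while for GNAZ, LAMC3, FIBCD1 and AIF1L it was 56.2 or more.

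H3K27ac played no part in the choice. By SEACR promoter peaks in the benchmark libraries the 9 genes parted into the 5 on chromosomes 9 and 22 and the other 4. By gene body the parting was not clean, since SLC12A7 had some H3K27ac in 4 of these libraries and RTN4R in 3. In the 6 benchmark libraries, 5 of the 9 had an H3K27ac promoter peak in at least 1 library, near the 54.1% of all protein-coding genes. AIF1L was the only 1 with a peak in all 6, as 36.7% of protein-coding genes had. LAMC3 and FIBCD1 had 1 in 4 libraries, GNAZ and RTN4R in 3, and SLC12A7, CNTN2, NFASC and RBFOX3 in none. In the MACS2 lists of these libraries 6 of the 9 had a promoter peak in at least 1, the added gene being SLC12A7 at 1 of 6 starts in ab177178 replicate 2.

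In bulk libraries, both marks over a gene in the same cells and each in other cells or on other copies cannot be told apart. GNAZ was covered by H3K27ac over 93.4 and 90.2% of its length with ab177178 (replicates 1 and 2), 82.2 and 26.4% with ab4729 and 12.1 and 23.1% with Diagenode. AIF1L was covered over 71.4 and 90.3% with ab177178, 69.2 and 61.8% with ab4729 and 23.6 and 42.4% with Diagenode. FIBCD1 was covered over 62.2 and 75.4%, 56.7 and 16.3%, and 0 and 0%. For these genes both ab177178 libraries and ab4729 replicate 1 were high, and ab4729 replicate 2 fell toward Diagenode for GNAZ and FIBCD1.

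LAMC3 was covered by H3K27ac over 35.1 and 36.4% with ab177178, 33.7 and 0% with ab4729 and 11.4 and 5.88% with Diagenode. RTN4R was covered over 25.1 and 38.8%, 14.9 and 0%, and 0 and 0%. SLC12A7 was covered over 7.38 and 6.78% with ab177178, 8.86 and 7.01% with ab4729 and not at all with Diagenode. CNTN2, NFASC and RBFOX3 had no H3K27ac SEACR peak over any base in all 6 libraries, while 57.3% of protein-coding genes had 1 in at least 1 library.

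The median coverage of the 9 by H3K27ac was 13.1% (median of the genes' means over 6 libraries), against 1.5% over all protein-coding genes. By MACS2, whose peaks are narrower, it was 2.82%, and with only the higher-signal 50% of each SEACR list it was 4.18%. By MACS2, GNAZ was covered over 46.2 and 37.3% with ab177178 and AIF1L over 41.6 and 42.7%, and CNTN2 and RBFOX3 again had nothing.

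In the benchmark libraries ab177178 covered AIF1L, LAMC3, FIBCD1, GNAZ and RTN4R more than the other antibodies did, while CNTN2, NFASC and RBFOX3 stood at 0 with each. Its SEACR lists were also the largest, at 76.5 and 77.6 Mb in total against 49.4 to 63.2 Mb with the others. The paper reports that this antibody missed its precision limit with MACS2, with more peaks outside the reference set. The part of list size in the difference was not tested. The median gene stood at 30.7% with ab177178 and at 3.72% over the other 4 benchmark libraries, a difference of 27 percentage points (exact two-sided permutation test over 15 ways, p = 0.0667, the smallest p the design allows). It was 6.87 with the higher-signal 50% of each list (exact permutation p = 0.333) and 2.13 with MACS2 (exact permutation p = 0.133). Without replicate 2 of each antibody the difference was 17.6 percentage points, and without replicate 1 it was 36.4. Both ab177178 libraries lay above the other 4 for 5 of the 9 genes, as they did for 32.5% of the 11537 genes with any coverage. The exact permutation p was 0.0667 for GNAZ (91.8% against 35.9%) and RTN4R (31.9% against 3.72%) and 0.133 for AIF1L, FIBCD1 and LAMC3.

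In the 16 H3K27ac libraries of the PCR and extraction set the same comparison was made on all 10698 genes with any coverage. The ab177178 lists were longer here too, with 8161 to 10821 peaks against 3797 to 7225 with the other antibodies. No gene passed in either direction after adjustment (0%), and 9.82% of genes had an unadjusted p under 0.05 in the exact permutation test, among them 4 of the 9. In that exact permutation test these were AIF1L (34.0% with ab177178 against 5.63% with the other antibodies, p = 0.0011, adjusted p = 0.107), GNAZ (42.9% against 4.64%, p = 0.00275, adjusted p = 0.154), LAMC3 (30.0% against 4.92%, p = 0.00934, adjusted p = 0.226) and FIBCD1 (41.5% against 13.0%, p = 0.0374, adjusted p = 0.39). RTN4R stood at 9.12% against 0.292% (same exact permutation test, adjusted p = 0.39). Leaving out 1 ab177178 library at a time, 3 to 6 of the 9 had an unadjusted p under 0.05. Without either library of 11 cycles the difference for FIBCD1 was 18.9 (SDS) and 17.5 (column) percentage points against 28.5 with both (exact permutation p = 0.233 in either case), and that for RTN4R 5.08 and 6.50 against 8.83. For none of the 9 did the 4 ab177178 libraries lie wholly above the other 12, as they did for 0.636% of genes.

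The ab177178 libraries differed by cycle number. With ab177178 at 11 cycles, GNAZ was covered over 66.4% (SDS) and 62.1% (column), and at 13 cycles over 39.6 and 3.37%. FIBCD1 went from 70.6 and 74.5% to 18.0 and 2.97%, and LAMC3 from 49.7 and 48.3% to 20.4 and 1.57%. Active Motif at 11 cycles with column covered FIBCD1 over 66.5%, LAMC3 over 35.4% and GNAZ over 30.6%, where its 13-cycle column library had 0, 0 and 1.48%. Of the 8 pairs of libraries that differ only in cycles, coverage by H3K27ac was lower at 13 cycles in 7 for AIF1L and FIBCD1 and in 6 for GNAZ and LAMC3, with 1 pair higher for LAMC3 and none for the other 3. The mean difference was -35.0 percentage points for FIBCD1 (SD 26.7, n = 8) and -13.4 for AIF1L (SD 11.8), and no test was made because the pattern was seen first.

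Of the 9 genes, 6 had an H3K27ac promoter peak in at least 1 of these 16 libraries, as 48% of protein-coding genes did, and SLC12A7, NFASC and RBFOX3 had none. AIF1L had 1 in 9 libraries and CNTN2 in 1. By gene body, CNTN2, NFASC and RBFOX3 stayed near 0, as did the median over all protein-coding genes (0.0439%). CNTN2 was covered in 1 library (ab177178, 11 cycles, SDS) over 5.53%, NFASC in 1 over 0.571% and RBFOX3 in 2 over at most 0.422%. Over all 31 H3K27ac libraries, 22 had some coverage of AIF1L, 20 of GNAZ, 19 of LAMC3, 17 of SLC12A7, 16 of FIBCD1 and 8 of RTN4R, against 2 of CNTN2, 3 of NFASC and 4 of RBFOX3. Without the 2 libraries with TSA that stood apart, the counts over 29 libraries were 20 for AIF1L, 18 for GNAZ, 17 for LAMC3, 15 for SLC12A7, 14 for FIBCD1 and 7 for RTN4R, and 2, 2 and 3 for CNTN2, NFASC and RBFOX3.

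In the first libraries ab177178 covered the 5 genes on chromosomes 9 and 22 most. Without TSA, ab177178 covered GNAZ over 93.1%, FIBCD1 over 90.9%, AIF1L over 85.8%, LAMC3 over 74.1% and RTN4R over 69.3%, with CNTN2 at 7.63%, SLC12A7 at 6%, NFASC at 2.69% and RBFOX3 at 0%. The ab4729 library covered AIF1L over 12.1%, SLC12A7 over 6.25%, GNAZ over 4.82%, LAMC3 over 4.01% and RBFOX3 over 0.537%, and FIBCD1 and RTN4R not at all. Active Motif and Diagenode covered at most 7.81% of any of the 9.

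The libraries labelled with TSA turned this order around. The library labelled ab4729 with TSA covered GNAZ over 91.6%, FIBCD1 over 88.3%, AIF1L over 80.8%, LAMC3 over 69.7% and RTN4R over 57.1%, and the library labelled ab177178 with TSA covered none of the 9 over more than 4.82%. The median difference over the 9 was 57.1 percentage points for ab4729 and -69.3 for ab177178, and 0 for Diagenode at both dilutions. The mean coverage over all protein-coding genes was lower with TSA in each pair. It went from 7.66 to 2.99% for ab4729 and from 4.35 to 1.16% for ab177178. For Diagenode it went from 2.21 to 1.25% at 1:100 and from 5.75 to 1.76% at 1:50. Over the 4 pairs the mean of the median differences over the 9 was -3.04 percentage points (SD 51.7), -23.1 without the ab4729 pair and 19.0 without the ab177178 pair. Its sign thus rests on which is kept, and 4 pairs are too few for a two-sided exact p under 0.05. The ab4729 and ab177178 libraries with TSA are those that stood apart above. The direction of the differences over the 9 for ab4729 and ab177178 rests on their labels being right, which was not tested, and the lists without TSA were called at full depth.

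The depth of the H3K27ac peaks differed between genes and libraries. Over GNAZ and FIBCD1 the median depth was 0.771 and 0.813 times the list median (20 and 16 libraries with a peak), at the 23rd and 25th percentile of the peaks of the list. Over AIF1L it was 1.27 times (77th percentile) and over SLC12A7 1.49 times (85th percentile). Without the 2 libraries with TSA that stood apart, the medians were 0.761 for GNAZ, 0.813 for FIBCD1, 1.27 for AIF1L and 1.38 for SLC12A7. In the first ab177178 library, where GNAZ and FIBCD1 were covered over 93.1 and 90.9%, their peaks stood at 1.73 and 1.74 times the list median. The H3K27me3 peaks over GNAZ and FIBCD1 stood at 3.45 and 9.27 times their list medians (medians over 7 libraries). These 7 include the 2 benchmark libraries whose signal took part in the choice. The H3K27me3 lists were called at a less strict threshold and are longer, so that the ratios of the 2 marks are not on the same scale.

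The question of whether full H3K27me3 coverage goes with H3K27ac elsewhere was put to all protein-coding genes of 20 kb or more with at least 90% coverage in both benchmark H3K27me3 libraries. Of these 101 genes, 10 lay within 4 Mb of ABL1 or BCR, 5 of them among the 9. Of the 10, 7 were covered by ab177178 over 25% or more of their length in the benchmark libraries, and of the other 91, which include SLC12A7, 0 were (highest 12.6%, median 0%). With ab4729, 5 of the 10 and 0 of the 91 reached 25%, and with Diagenode 1 and 0. Besides GNAZ, AIF1L, FIBCD1, LAMC3 and RTN4R, the 7 were RAB36 (91.2%) and RSPH14 (71.7%), which lie beside and across GNAZ. The other 3, NTNG2, ADAMTSL2 and DBH, stood at 0% with ab177178 and ab4729 in the benchmark libraries. They lie on chromosome 9 at 1.27, 2.63 and 2.74 Mb from ABL1. With ab177178 in the PCR and extraction libraries, 8 of the 10 and 35 of the 91 had some coverage, and 5 and 0 reached 25%. The 90% limit uses the H3K27me3 libraries that chose the 9, and 5 of the 7 are among the 9, so that the count is no separate test. It is a description of 1 cell line at loci seen first.

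ABL1 and BCR themselves were covered more by H3K27ac than by H3K27me3, here in unlike sets of libraries. BCR was covered by H3K27ac over 75.6% ± 3.93 (SD, n = 6 benchmark libraries) and by H3K27me3 over 2.85% ± 1.67 (n = 5 libraries outside the choice). ABL1 was covered over 27.5% ± 15.4 and 1.16% ± 1.27. In the 2 benchmark H3K27me3 libraries the means were 9.70% for BCR and 1.06% for ABL1. In the PCR and extraction libraries, H3K27me3 covered BCR over 2.77% and H3K27ac over 16.4% (exact permutation test, adjusted p = 0.0763). ABL1 stood there at 0.619 and 2.11% (exact permutation test, adjusted p = 0.321), so that neither gene was called. Both had an H3K27ac promoter peak in all 6 benchmark libraries, and BCR, but not ABL1, had an H3K27me3 peak near a start in all 5 libraries.

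The nearest neighbours show where some of the domains end. NUP214, which begins 2.42 kb after AIF1L and encodes a nuclear pore protein, was covered by H3K27me3 over 0.329% ± 0.385 (SD, n = 5) and by H3K27ac over 48.3% ± 20.8 (n = 6), with an H3K27ac promoter peak in all 6 benchmark libraries and an H3K27me3 peak near a start in all 5 libraries. On the other side, QRFP, a neuropeptide gene 5.63 kb before FIBCD1, was covered by H3K27me3 over 58.8% ± 18.3 and by H3K27ac over 81.4% ± 40.1, with an H3K27ac promoter peak in 5 of 6 benchmark libraries. H3K27me3 thus covered QRFP, which lies between FIBCD1 and ABL1, but little of ABL1 or of NUP214.

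RAB36, 20.3 kb after GNAZ, was covered by H3K27me3 over 88.1% ± 7.85 and by H3K27ac over 41.3% ± 44.9. IGLL5, 174 kb before GNAZ, was covered over 63.4% ± 5.87 and 21.7% ± 24.4. DGCR6L, 31 kb from RTN4R, was covered over 2.97% ± 2.82 and by H3K27ac over 59.0% ± 33.9. Near SLC12A7, NKD2 (an inhibitor of Wnt signalling) 11.4 kb away was covered over 62.2% ± 17.8. TMEM81, 4.84 kb after CNTN2, and ENGASE, 0.746 kb after the end of RBFOX3, had no H3K27me3 in any of the 5 libraries. On the other sides, neighbours 89.5 to 192 kb away were covered by H3K27me3 in part. SLC6A19 near SLC12A7 stood at 18.5% ± 9.12 and LRRN2 near NFASC at 15.4% ± 6.03. ENPP7 near RBFOX3 stood at 21.4% ± 13.7 and CCDC188 near RTN4R at 18.5% ± 30.0.

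Relatives and partners of the 9 were taken as a list of 37 genes. Their median H3K27me3 coverage in the 5 libraries outside the choice was 0.364% against 64.9% for the 9, and 11 of the 37 had an H3K27me3 promoter peak in all 5. In the mark test of the PCR and extraction libraries, 30 of the 37 were covered in at least 1 library and tested, 16 were called higher for H3K27me3 and 1, RTN4, lower, where 28.6% and 6.74% of all genes tested were. The highest were FCN2, a ficolin of innate immunity (35.9% ± 25.2, SD, n = 5), NGFR, the neurotrophin receptor that partners RTN4R (30.5% ± 14.3), SLC12A3, a sodium-chloride cotransporter (29.3% ± 14.5), and L1CAM, an adhesion molecule of the neurofascin family (28.2% ± 20.9).

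Within families the marks split. Of the contactins, CNTN1, CNTN3, CNTN5 and CNTN6 had no peak of either mark over the gene in these 11 libraries, and CNTN4 was covered by H3K27me3 over 0.108%, against 58.8% for CNTN2. Of the cotransporters, SLC12A2, SLC12A4 and SLC12A9 had H3K27ac promoter peaks in all 6 benchmark libraries and no H3K27me3. SLC12A7 had an H3K27me3 promoter peak in all 5 libraries and no H3K27ac SEACR promoter peak. Of the inhibitory G protein subunits, GNAI2 and GNAI3 had H3K27ac promoter peaks in all 6, and GNAO1 was covered by H3K27me3 over 21.2%. LAMC1 had an H3K27me3 promoter peak in all 5 libraries with 9% of the gene covered, against 93.0% for LAMC3. RTN4, which encodes the ligand of RTN4R, had an H3K27ac promoter peak in all 6.

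**Figure D5:**
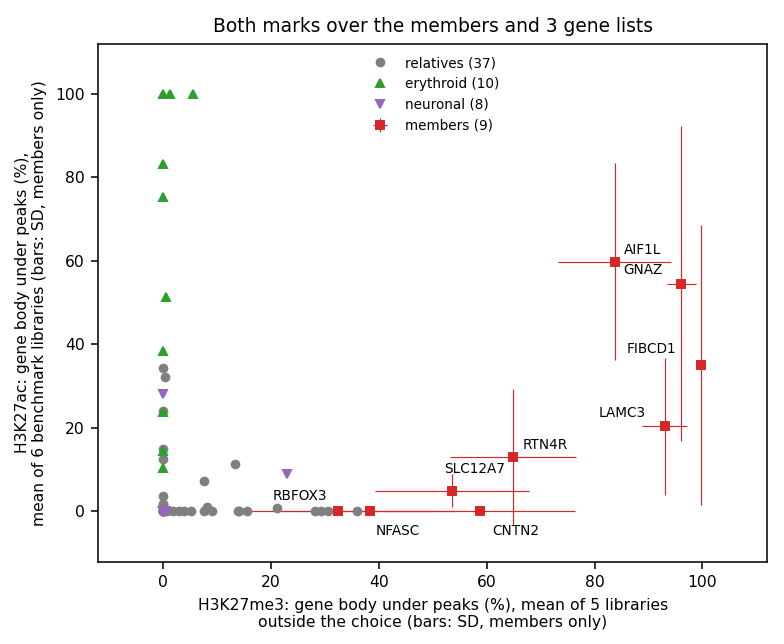
Percent of the gene body under H3K27me3 peaks (mean of 5 libraries outside the choice) against that under H3K27ac peaks (mean of 6 benchmark libraries) for the 9 genes (red squares, bars are SD over libraries), 37 relatives and partners (grey), 10 erythroid genes (green) and 8 neuronal genes (purple). The erythroid genes lie along the H3K27ac axis and the relatives near the axes, while AIF1L, GNAZ, FIBCD1 and LAMC3 lie away from both.

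The genes nearest to each of the 9 by mean absolute difference of coverage over the 38 libraries were found as a description. RSPH14 on chromosome 22, which overlaps GNAZ, was nearest to AIF1L (6.56 percentage points), LAMC3 (6.15) and GNAZ (5.19), and GNAZ was nearest to FIBCD1 (7.73). Peaks over RSPH14 and GNAZ are in part the same. For RTN4R the nearest 2, AC008132.13 (4.70) and IGLL5 (5.38), were also on chromosome 22. The other 4, like AIF1L, LAMC3 and FIBCD1, had their nearest gene on another chromosome. These were TNNI1 for SLC12A7 (2.05), UMODL1 for CNTN2 (0.847), TSPAN11 for NFASC (0.57) and VAV2 for RBFOX3 (0.492). The 2nd nearest to SLC12A7, SLC9A3 (2.13), lies on its own chromosome 5. Genes with little coverage in most libraries are close to each other by this measure.

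The PCR cycles and extraction shifted H3K27me3 over the 9 without one direction. With SDS, coverage was higher at 13 than at 11 cycles for all 9, by a median of 13.2 percentage points, and the mean over all protein-coding genes rose from 3.21 to 4.03%. With column extraction the median difference was -0.61 percentage points, with 4 genes higher and 5 lower, and the mean over all genes went from 4.10 to 3.59%. CNTN2 gained 24.1 percentage points with SDS and fell by 7.67 with column extraction. With 1 library per condition there is no replicate check, and 2 pairs allow no p under 0.5.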

How the data were processed

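CUT&Tag peak lists of 38 K562 libraries were analysed, 38 from SEACR and 18 from MACS2. Tools that the submitters' processing notes name are Trim Galore 0.6.6, Bowtie2 2.2.9, Picard 2.6.0, SAMtools 1.3.1 and bedtools 2.25.0, with hg19 as the genome. The authors called peaks in every library on its own. Each deposited SEACR peak carries 2 signal values, fragment coverage summed over its bases and the maximum coverage. The MACS2 lists that the authors deposited give −log10 q values, and only peak positions were used here. A less strict SEACR threshold was set for H3K27me3, and the PCR and extraction libraries were downsampled to a shared number of read pairs, which need not match unique fragments. The depth of the lists in reads is not held in the files.

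Peaks on chromosomes 1 to 22, X and Y (1331138, of which 1 ran 102 bases past a chromosome end) were joined to GENCODE v44lift37 on GRCh37, the same assembly as hg19, with Python 3.11.15, numpy 2.4.6 and pandas 2.3.3, and the plots with matplotlib 3.10.9. An overlap of 1 bp counted. Coverage of each protein-coding gene with a peak in at least 1 library was compared by exact permutation over libraries with Benjamini-Hochberg adjustment at 0.05, after a check on simulated data. All 9 genes, their nearest neighbours, ABL1 and BCR, a list of relatives and the 3 nearest genes by coverage were named by rule. RAB36, RSPH14, NTNG2, ADAMTSL2 and DBH were named after their values were seen. The genes, lists and tests were chosen with earlier results of these data known. Alternatives changed peak merging, signal, flank, window, caller, filter and libraries. Some items are not reported here.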

Additional observations from a re-analysis of the deposited data

Results flagged for a closer look

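Of 32 sets of 4 to 6 libraries looked at, 2 held a library far from the others by the ratio of its gap to the range. Where all libraries but 1 are equal, this ratio is at its highest however small the gap, so that no chance rate is given. FIBCD1 was covered by H3K27me3 over 100% at 13 cycles with column extraction, against 99.5% in the other 3 PCR and extraction libraries. CNTN2 was covered by ab177178 over 5.53% at 11 cycles with SDS, against 0% in the other 3 ab177178 libraries of that set.

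For 5 genes the change in H3K27me3 coverage from 11 to 13 cycles had opposite signs with SDS and with column extraction, and the difference was not tested, since each condition is 1 library. The changes were 21.5 and -16.3 percentage points for SLC12A7, 24.1 and -7.67 for CNTN2, 4.35 and -0.61 for GNAZ, 15.8 and -4.41 for RBFOX3 and 11.7 and -2.46 for RTN4R (SDS first).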

How the results depend on the processing

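The mark difference was called for all 9 genes under each of the 11 alternatives, with 9.29% to 40.4% of the genes tested called higher. The ab177178 difference in the PCR and extraction libraries was called for 0 genes under each of its alternatives, and of the 9 genes' own differences 1 changed sign, SLC12A7 ranging from -0.033 (without the library of 11 cycles with column extraction) to 0.337 percentage points in the leave-one-out runs and turning to -0.54 at 13 cycles only, an alternative added after the values were seen. In the leave-one-out runs the counts of called genes stayed at 9 and 0. The benchmark ab177178 difference ranged from 17.6 to 36.4 percentage points without 1 replicate of each antibody, was 6.87 with the higher-signal 50% of each list and 2.13 with MACS2. With the replicate block, permuting within replicate number, its value was 27 percentage points with an exact permutation p = 0.111 over 9 ways. The numbers share no pairing that the data show, since deviations of same-numbered libraries correlated at -0.0372 to 0.0661 across genes. The widest H3K27me3 peak of the median gene moved from 15.9 kb to 35.3 kb with peaks within 1000 bp merged and to 62.2 kb in the 1 MACS2 list given, and ranged from 8.91 to 18.6 kb without 1 library. In the benchmark libraries it moved from 78.4 to 125 kb with merging. Without 1 library, the H3K27me3 promoter count stayed at 9 and H3K27me3 coverage ranged from 60.2 to 67.2%. Without replicate 1 or replicate 2 of each antibody, the H3K27ac promoter count stayed at 5 and H3K27ac coverage ranged from 12.9 to 13.3%. Every other alternative kept the direction and the side of the threshold, or moved a value by less than the spread between libraries. Lists hold only peaks past a threshold, so that 0% coverage is no measure of absent signal, and 1 library per condition limits the cycle and extraction comparisons.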
